A study of Mus musculus with 8 samples.

Results

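The cysteine-rich secretory protein genes Crisp1, Crisp2 and Crisp3 and the seminal vesicle secretory protein genes Svs1, Svs2, Svs3a, Svs4, Svs5 and Svs6 were measured in RNA of total mouse ovary and of total ovarian neoplasm. They are 9 of the 20145 genes that the arrays name, and a probe was assigned to one of them by the RefSeq accession it carries. The genes were picked because earlier results from these same samples showed several of them far higher in the neoplasias, so the difference between the groups is given for them as a description, without a p-value. The wildtype group consisted of 3 healthy ovary samples (wildtype 1 to 3). The neoplasia group consisted of 5 samples (neoplasia 1 to 5) of a genotype that the sample labels write as Pgrcre/+mPgrLsL/+ and the series text as Pgrcre/+PgrBLsL/+. That genotype joins a Cre recombinase expressed from the progesterone receptor locus to an LsL allele of the receptor, in which a stop cassette between loxP sites blocks expression until Cre removes it. All mice were 33 weeks old and cycling, with no stage of the cycle given, and the wildtype controls carried neither allele by their label. Cre is made where the Pgr promoter is active, and the labels do not say which cells that was here. In RNA of total tissue, fewer cells of a type and less RNA per cell cannot be told apart. The labels do not state whether the arrays stand for separate animals, and p-values then measure only the spread between these samples, which may be technical.

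CRISP proteins are secreted proteins of the CAP superfamily that coat sperm in the epididymis and act in sperm maturation and fertilization, and Crisp2 is the testis member found in the acrosome and tail of sperm. Crisp1 is the epididymal member, and Crisp3 is best known from salivary gland and from B cell precursors in the mouse. The SVS proteins are the bulk of the fluid made by the seminal vesicle under androgen control, where Svs2 forms the copulatory plug and Svs1, an amine oxidase relative, and Svs3 to Svs6 make up other parts of the fluid.

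The promoters of these genes are shown because 4 of the 5 members that were bright in the neoplasias are 2 pairs of neighbours with near-identical promoters. Each sequence runs 5′ to 3′ on the gene's strand from 250 bases before to 50 after the RefSeq start, in build GRCm38.p6. Capitals mark TATAAA on the gene's strand, the core of the TATA box, and AGAACA on either strand (TGTTCT where it lies on the other strand), the hexamer that androgen, progesterone and glucocorticoid receptors recognise. No capitals overlap in the sequences shown. The Crisp1 and Crisp3 promoters were at chr17:40319158-40319457 (minus strand) and chr17:40242239-40242538 (minus strand), and that of Crisp2, the Crisp gene without signal, at chr17:40794097-40794396 (minus strand). The Svs5 and Svs6 promoters were at chr2:164332515-164332814 (plus strand) and chr2:164316501-164316800 (plus strand), and that of Svs4, a relative in the same cluster, at chr2:164278258-164278557 (minus strand).
Crisp1: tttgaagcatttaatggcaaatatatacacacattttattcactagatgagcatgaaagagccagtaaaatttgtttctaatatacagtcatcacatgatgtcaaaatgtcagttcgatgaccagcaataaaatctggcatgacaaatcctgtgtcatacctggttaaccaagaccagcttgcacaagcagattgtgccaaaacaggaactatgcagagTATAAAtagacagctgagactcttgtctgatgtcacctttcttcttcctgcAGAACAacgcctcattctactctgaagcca
Crisp3: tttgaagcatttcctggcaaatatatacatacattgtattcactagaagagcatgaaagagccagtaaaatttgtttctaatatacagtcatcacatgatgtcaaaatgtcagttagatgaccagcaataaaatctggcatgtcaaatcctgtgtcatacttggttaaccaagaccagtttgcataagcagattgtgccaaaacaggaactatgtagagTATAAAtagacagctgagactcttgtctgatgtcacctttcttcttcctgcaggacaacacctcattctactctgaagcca
Crisp2: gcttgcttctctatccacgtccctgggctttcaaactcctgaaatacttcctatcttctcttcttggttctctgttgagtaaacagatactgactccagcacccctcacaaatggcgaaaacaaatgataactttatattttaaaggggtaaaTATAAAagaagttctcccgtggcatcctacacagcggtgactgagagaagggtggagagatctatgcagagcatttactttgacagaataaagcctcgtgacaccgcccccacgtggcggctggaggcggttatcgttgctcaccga
Svs5: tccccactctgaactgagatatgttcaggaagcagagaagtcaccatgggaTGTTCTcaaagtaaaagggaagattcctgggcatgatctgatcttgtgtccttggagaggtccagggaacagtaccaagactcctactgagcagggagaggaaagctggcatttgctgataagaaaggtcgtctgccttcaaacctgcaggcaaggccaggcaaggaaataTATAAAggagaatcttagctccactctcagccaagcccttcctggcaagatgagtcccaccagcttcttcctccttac
Svs6: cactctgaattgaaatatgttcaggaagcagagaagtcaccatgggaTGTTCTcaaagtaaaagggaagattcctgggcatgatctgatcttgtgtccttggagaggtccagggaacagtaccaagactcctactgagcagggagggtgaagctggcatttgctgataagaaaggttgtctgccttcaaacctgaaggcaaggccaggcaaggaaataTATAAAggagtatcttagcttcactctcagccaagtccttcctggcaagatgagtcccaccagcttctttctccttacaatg
Svs4: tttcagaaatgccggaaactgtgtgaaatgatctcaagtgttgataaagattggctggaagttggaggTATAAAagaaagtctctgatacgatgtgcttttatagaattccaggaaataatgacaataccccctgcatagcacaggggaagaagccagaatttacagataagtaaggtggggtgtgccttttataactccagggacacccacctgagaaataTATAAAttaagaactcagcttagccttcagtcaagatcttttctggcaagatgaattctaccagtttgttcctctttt

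All 9 members had a promoter in the RefSeq table. Svs3a had 2 entries there, of which the first was used. The Crisp1 and Crisp3 promoters were identical at 287 of 300 aligned positions (95.7%), and those of Svs5 and Svs6 at 285 of 304 (93.8%). Crisp1 and Crisp2 shared 45.2%, and Svs4 shared 56.9% with Svs5 and 57.2% with Svs6. TATAAA lay on the gene's strand in 8 of the 9 promoters, all but that of Svs1, against 8.32% of the 32851 promoters of the same length. It started 40 to 21 bases before the gene's start in 6 of 9, namely Crisp1, Crisp3, Svs3a, Svs4, Svs5 and Svs6, against 1.99% of all promoters. That window was chosen after the sequences were seen. In Crisp2 the TATAAA lay 97 bases before the start, and in Svs2 copies lay 236 and 205 bases before it. AGAACA was found on either strand in 5 of 9 promoters, those of Crisp1, Svs1, Svs3a, Svs5 and Svs6, against 19% of all promoters. In Svs5 and Svs6 it lay in the same stretch, 199 and 203 bases before their starts, while Crisp1 had it 20 bases after the start, where the Crisp3 sequence differs. The complete element, AGAACA followed after any 3 bases by TGTTCT, was in 0 of the 9 and in 3 of all 32851 promoters. These matches describe the letters in the window and say nothing about binding by a receptor. Near-identical promoters enter the counts separately, so the 9 promoters are not 9 independent observations. How far the probe of one such gene also measures its neighbour was not tested, since probe sequences were not used here.

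RNA was labelled with Cy3 and hybridised to 8 one-colour Agilent arrays on 1 slide, scanned in 1 session. Levels are given as log2 of the processed signal relative to the 75th percentile of the array, so that 0 is the signal of a probe at that percentile. The 75th percentile was 462 to 515 in the wildtype arrays and 309 to 429 in the neoplasias, and 33737 to 34147 and 29332 to 32920 of 55681 probes were well above background. Neoplasia 1 to 4 filled the first row of the slide, and neoplasia 5 lay with the wildtype arrays in the second row. A probe entered the test if 3 or more arrays had it well above background, and limma was run over 25169 features at an adjusted p of 0.05. Of these, 4232 (16.8%) were higher in neoplasia and 3402 (13.5%) lower. The share of calls that were higher was 55.4%, and it was 66.2% with normexp, 19.9% in the deposited values and 15.2% with spike-in scaling. Every neoplasia array lay above every wildtype array for 22.9% of the features, and the median difference of all features was 0.13. The number of arrays limits the precision of every value.

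Of the 9 member genes, 5 were bright in the neoplasias, namely Crisp1, Crisp3, Svs1, Svs5 and Svs6. The other 4 were not well above background, apart from Svs4 on a single neoplasia array. All 5 that could be tested were called higher, and in all 5 the groups did not overlap, against the background of 16.8% and 22.9%. Nothing is read from that contrast, since the members were chosen by it and a gene that passed the filter only through the neoplasias had to differ. The 5 genes were well above background on every neoplasia array, although by widely different amounts, as the plot of levels by gene shows.

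**Figure D1:**
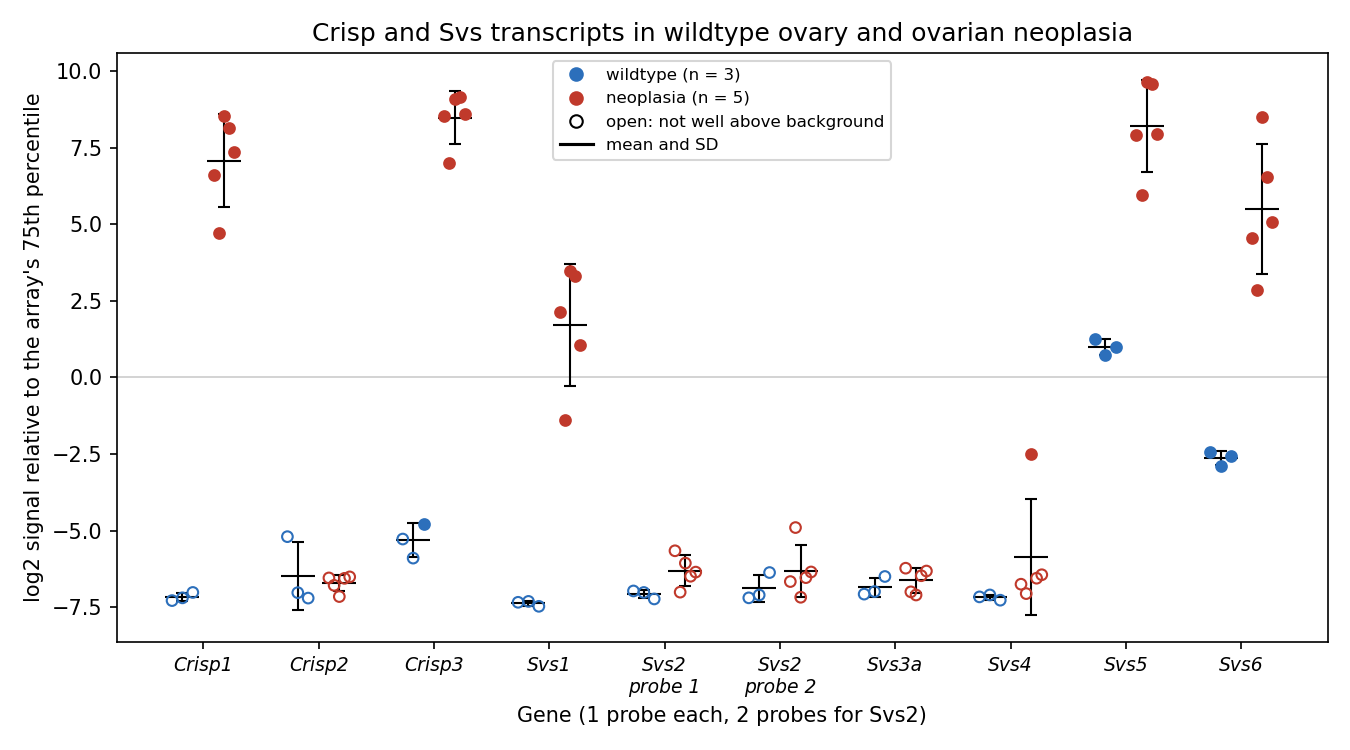
Levels of the 9 member genes (10 probes, Svs2 having 2) as log2 signal relative to the array's 75th percentile, for 3 wildtype (blue) and 5 neoplasia (red) arrays; open points were not well above background, and bars are mean and SD. Crisp1, Crisp3, Svs1, Svs5 and Svs6 had filled points on all 5 neoplasia arrays, while Crisp2, Svs2 and Svs3a had open points throughout.

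Crisp1 (gene ID 11571) was at background in wildtype ovary and among the bright probes of the neoplasias. Its level was -7.28, -7.19 and -7.02 in wildtype 1 to 3 and 6.59, 4.71, 8.55, 8.15 and 7.34 in neoplasia 1 to 5. Every neoplasia was high and no wildtype array was well above background, with processed signals of 3.28 to 3.57 against 11205 to 135859. The means were -7.17 ± 0.14 (SD, n = 3) and 7.07 ± 1.52 (SD, n = 5), a difference of 14.23 ± 0.78 (SE). Because the wildtype signal has only an upper bound, the fold is stated as at least 5662-fold higher. That bound sets the neoplasia mean against the lowest signals counted as well above background on the wildtype arrays. It holds for the processed signal, and with normexp, which adds 50 to every signal, the difference was 10.05 or 1060-fold.

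Crisp3 (gene ID 11572), the neighbour of Crisp1, had the tightest levels of the 5 over the neoplasias. Its level was -5.28, -5.90 and -4.79 in wildtype 1 to 3 and 8.53, 7.01, 9.10, 9.14 and 8.58 in neoplasia 1 to 5. Wildtype 3 was the 1 wildtype array on which it was well above background, at a signal of 16.7, and the neoplasia signals were 55117 to 198707. The groups lay apart, with means of -5.32 ± 0.56 (SD, n = 3) and 8.47 ± 0.87 (SD, n = 5). The difference was 13.79 ± 0.50 (SE), and it rests in part on wildtype signals that were not well above background.

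Crisp2 (gene ID 22024), the testis member of the family, was not well above background on any of the 8 arrays. Its signals were 2.55 to 13.9, the highest of them in wildtype 1. The Crisp genes thus divided into a neighbouring pair with strong signal in the neoplasias and Crisp2 without signal above background.

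Svs5 (gene ID 20944) was well above background in every wildtype ovary as well as in every neoplasia. Its level was 1.26, 0.74 and 0.98 in wildtype 1 to 3 and 7.91, 5.97, 9.63, 9.58 and 7.94 in neoplasia 1 to 5. All neoplasias lay above all wildtype arrays, with signals of 863 to 1225 against 26771 to 288324. The means were 1.00 ± 0.26 (SD, n = 3) and 8.20 ± 1.51 (SD, n = 5), a difference of 7.21 ± 0.78 (SE) or 148-fold.

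Svs6 (gene ID 20945), which adjoins Svs5, was also measured above background on all 8 arrays. Its level was -2.43, -2.88 and -2.56 in wildtype 1 to 3 and 4.54, 2.84, 8.49, 6.55 and 5.06 in neoplasia 1 to 5. Neoplasia 3 stood highest and neoplasia 2 lowest, and the groups did not overlap, with signals of 69.8 to 94.8 against 3061 to 130514. The means were -2.63 ± 0.23 (SD, n = 3) and 5.49 ± 2.14 (SD, n = 5), a difference of 8.12 ± 1.09 (SE) or 278-fold. Svs5 and Svs6 were therefore the 2 members with a measured level in the wildtype ovary on all 3 arrays.

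Svs1 (gene ID 243377), which lies on another chromosome than the remaining Svs genes, was at background in wildtype ovary. Its level was -7.34, -7.31 and -7.47 in wildtype 1 to 3 and 2.15, -1.39, 3.47, 3.30 and 1.06 in neoplasia 1 to 5. Neoplasia 2 was low and neoplasia 3 and 4 were high, with signals of 163 to 4023, while the wildtype signals were 2.61 to 3.25. The means were -7.37 ± 0.09 (SD, n = 3) and 1.72 ± 1.99 (SD, n = 5), a difference of 9.09 ± 1.02 (SE), and the bound on the fold was at least 139-fold higher. With normexp the difference was 4.87 or 29.2-fold.

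Svs4 (gene ID 20941) was well above background on 1 array, neoplasia 3, at a signal of 63.5 and a level of -2.52. On the other 4 neoplasia arrays its level was -7.06 to -6.44, in the range of signals not well above background, and it was not tested. Svs2 (gene ID 53878), the copulatory plug protein, has 2 probes, and neither was well above background on any array. Svs3a (gene ID 64335) was likewise not well above background on any array, with signals of 2.65 to 5.11. Signal in the Svs cluster was therefore measured for the adjoining Svs6 and Svs5, and in 1 neoplasia for Svs4.

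The 5 bright members were spread widely over the neoplasias and in a like order. Neoplasia 2 had the lowest level of all 5 genes, and neoplasia 3 and 4 had the highest pair of levels in all 5. Among 19774 features well above background on all 5 neoplasia arrays, 20.3% had neoplasia 2 lowest, 9.87% had neoplasia 3 and 4 highest, and 2.61% had both. The pattern was read from these same members, so the shares are a description and no test of it. Neoplasia 2 stayed lowest and neoplasia 3 and 4 the highest pair for all 5 when the signals were left unscaled, quantile normalised or corrected with normexp. For Crisp3, neoplasia 3 and 4 changed places within the pair in these settings. The deposited values are unscaled too and gave the same orders, so they are no separate check. With spike-in scaling, neoplasia 2 remained the lowest for 5 of 5 and neoplasia 3 and 4 the highest pair for 3 of 5. Members of one neighbouring pair share a locus and near-identical sequence, so the 5 genes are not 5 independent observations of this order.

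**Figure D2:**
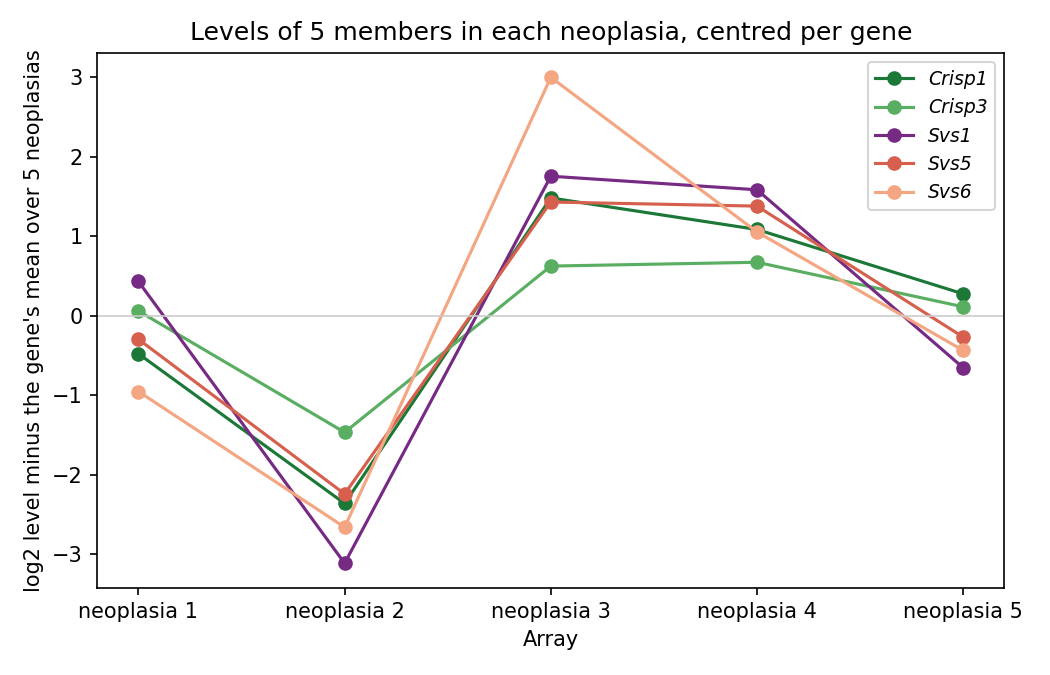
Level of each of the 5 bright members in neoplasia 1 to 5 as log2 signal minus that gene's mean over the 5 arrays; lines join the points of a gene and imply no order of the arrays. Neoplasia 2 was lowest for all 5 genes, neoplasia 3 and 4 were the highest pair, and Svs6 in neoplasia 3 stood above its level in neoplasia 4 by 1.94.

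The range over the neoplasias was 3.84 for Crisp1, 2.14 for Crisp3, 4.86 for Svs1, 3.67 for Svs5 and 5.65 for Svs6 (log2). As folds, the brightest neoplasia exceeded the dimmest by 14.3-fold for Crisp1, 4.40-fold for Crisp3 and 50.3-fold for Svs6. The median range of all features above background on these arrays was 1.03, and the range was smaller than that of Crisp3 in 85.8% of them and smaller than that of Svs6 in 99.5%. Crisp3 thus varied less between neoplasias than its neighbour Crisp1, and Svs6 more than its neighbour Svs5. Neoplasia 3 and 4 had nearly equal levels of Svs5 (a difference of 0.05) and of Crisp3 (-0.05), whereas Svs6 was 3.85-fold higher in neoplasia 3. Single arrays carry no replicate of a neoplasia, so these differences between arrays were not tested.

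For the members measured in wildtype ovary, the lowest neoplasia lay above the highest wildtype array by 4.70 for Svs5 and 5.27 for Svs6. Within the second slide row, neoplasia 5 exceeded the mean of the 3 wildtype arrays by 6.94 for Svs5 and 7.68 for Svs6. Against the bound of the wildtype signal, neoplasia 5 was at least 6847-fold higher for Crisp1 and at least 88.2-fold higher for Svs1. For Crisp3 the within-row difference was 13.90, which rests in part on wildtype signals not well above background. Leaving out neoplasia 2 raised the fitted difference to 14.82 for Crisp1, 9.87 for Svs1 and 8.78 for Svs6, and leaving out neoplasia 3 gave 7.37 for Svs6. The first row holds no wildtype array, so a fit with slide row as a block takes its difference from the second row alone. In that fit Svs6 was not called. Nothing is read from the calls of the other members, since they were chosen by this contrast.

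The members' pattern over the 5 neoplasias was set beside that of 182 other genes that were well above background in all neoplasias and in at most 1 wildtype ovary. Crisp1, Crisp3 and Svs1 meet that condition, whereas Svs5 and Svs6, above background in all wildtype ovaries, do not. Likeness was measured as the root mean square difference of centred log2 levels over the 5 arrays, and it is a description without a test. It takes in the size of a gene's spread as well as the order of the arrays. The neoplasia SD was 1.52 for Crisp1 and 1.51 for Svs5, beside 0.87 for Crisp3 and 2.14 for Svs6. Among the members themselves, Crisp1 and Svs5, on different chromosomes, were the closest, at 0.29, closer than Crisp1 to its neighbour Crisp3 (0.64) or Svs5 to its neighbour Svs6 (0.80). Nearest to Crisp1 were Ache, which encodes acetylcholinesterase (0.60), the metalloreductase gene Steap2 (0.60) and the interleukin 5 receptor gene Il5ra (0.65). For Crisp3 they were the keratin-associated protein gene Krtap11-1 (0.19), the sorting nexin gene Snx7 (0.43) and Steap2 (0.50). Il5ra was also nearest to Svs5 (0.44), followed by L3mbtl4 (0.51) and Ache (0.55), and nearest to Svs1 (0.68), followed by Gml (0.76) and L3mbtl4 (0.82). Svs6 stood further from any of them, with Fam90a1a (0.77), Vat1l (0.91) and the myosin gene Myh13 (0.97).

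The genes on either side of the members were read in RefSeq order, 5 protein-coding genes beyond each end. On chromosome 17, Crisp3 and Crisp1 adjoin each other and are parted from Crisp2 by 7 genes, mostly exocrine gland-secreted peptide (Esp) genes, of which 2 have a named probe and neither was above background often enough to be tested. Beyond Crisp2, 9130008F23Rik rose by 2.62 ± 0.30 (SE, adjusted p = 0.000893). The centromere protein gene Cenpq rose by 1.01 ± 0.30 (adjusted p = 0.0379), a call that was lost without any 1 of 7 of the 8 arrays (adjusted p = 0.0593 to 0.134, neoplasia 5 being the exception).

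On chromosome 2, Svs2, Svs3b, Svs4, Svs3a, Svs6 and Svs5 follow each other between the Wfdc genes and Slpi, which encode whey acidic protein-type inhibitors. Svs3b was not above background. Slpi, next to Svs5, differed by 2.17 ± 1.15 (adjusted p = 0.176). Among the 7 tested neighbours beyond the cluster, 1 was called, the syndecan gene Sdc4, which rose by 4.18 ± 0.53 (adjusted p = 0.00141). On chromosome 6, 3 of the 8 tested neighbours of Svs1 rose, the adjoining amine oxidase relatives Doxl2 (3.56 ± 0.95, adjusted p = 0.0263) and Doxl1 (1.19 ± 0.30, adjusted p = 0.0228) and the membrane protein gene Tmem176a (1.53 ± 0.39, adjusted p = 0.0223). The calls of these 3 were lost when any wildtype array was left out (adjusted p = 0.057 to 0.0906). With slide row as a block, the differences were 3.33 for Doxl2, 1.13 for Doxl1, 0.53 for Tmem176a and 0.17 for Cenpq, none of them called (adjusted p = 0.231 to 0.763). Tmem176a was also not called with quantile normalization (1.09, adjusted p = 0.0544). With spike-in scaling and in the deposited values, Doxl1 (0.59 and 0.72), Tmem176a (0.93 and 1.06) and Cenpq (0.41 and 0.55) were not called.

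**Figure D3:**
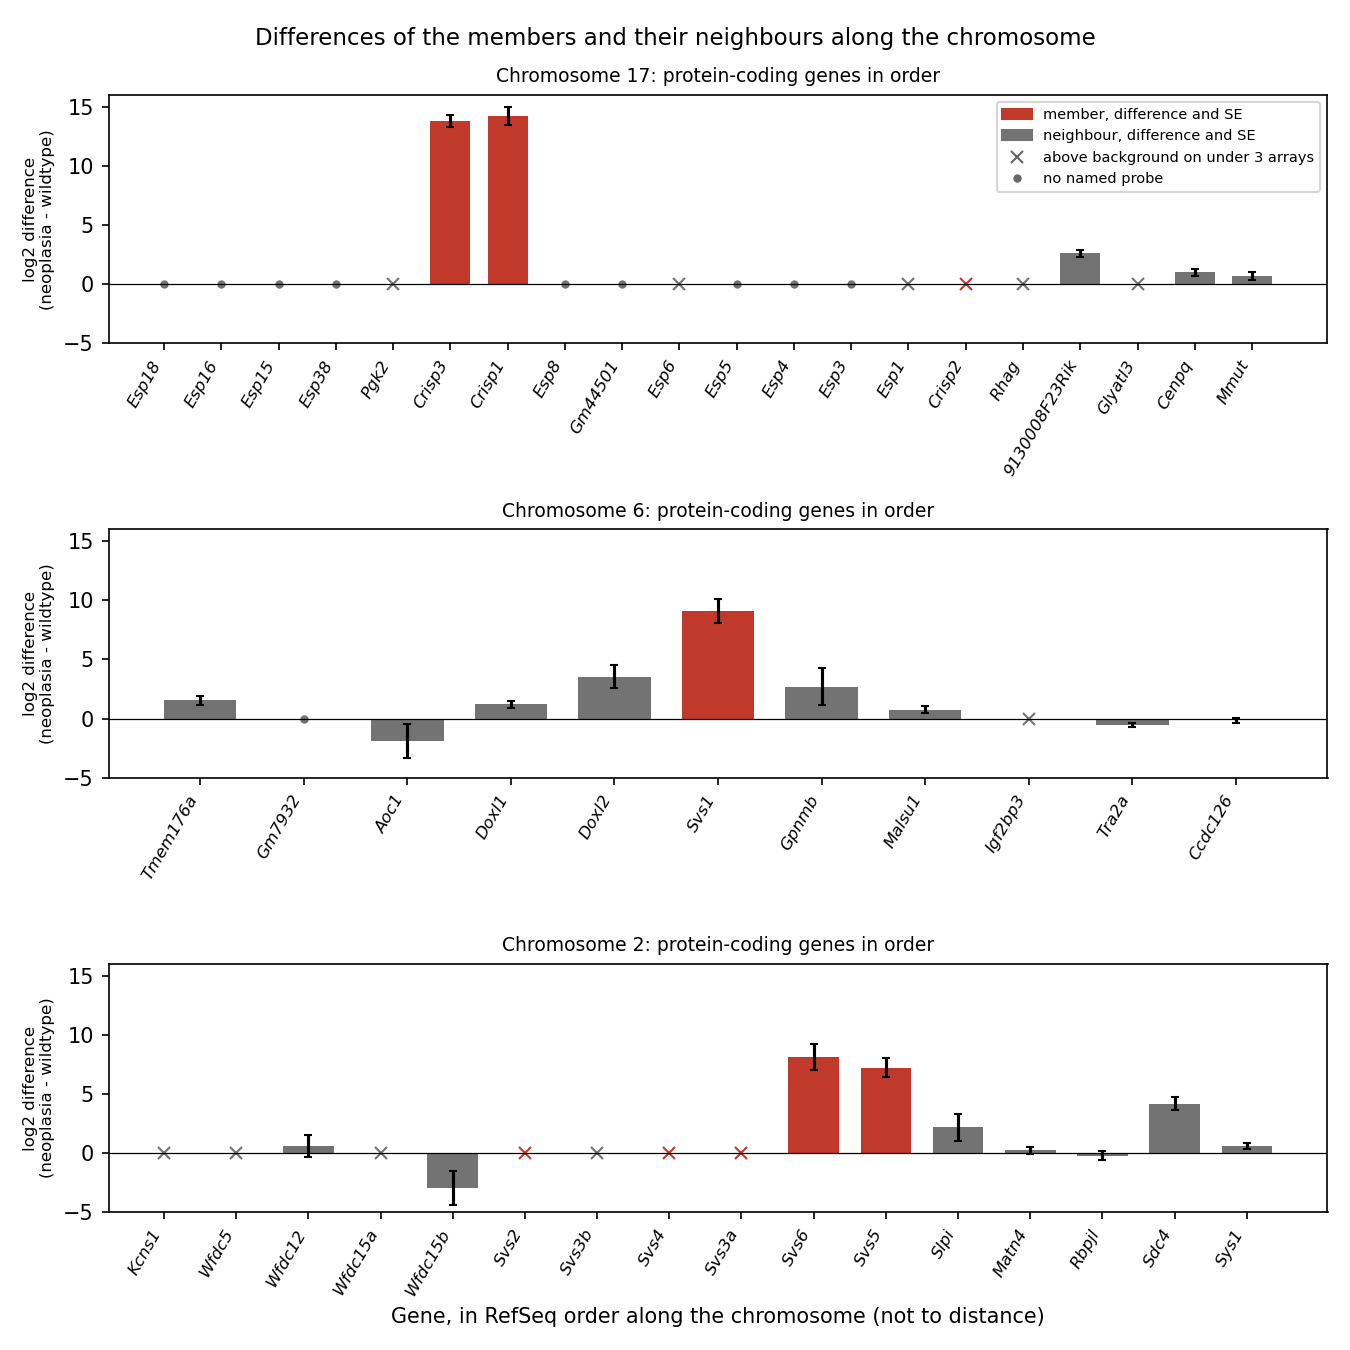
Difference between neoplasia and wildtype (log2, bars with SE) for the members (red) and their protein-coding neighbours (grey) in RefSeq order on chromosomes 17, 6 and 2; a cross marks a gene not above background on enough arrays to be tested, and a dot marks a gene without a named probe. Crisp3 and Crisp1 stand beside each other at fitted differences of 13.79 and 14.23, and Svs6 and Svs5 at 8.12 and 7.21. The members were chosen by this contrast, so their larger differences beside the neighbours are not a result.

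Of 12 other genes of the CAP superfamily, 10 have a named probe and 8 were tested, of which 1 rose, 2 fell and 5 were not called, with a median difference of -0.76 beside 0.13 for all features. Over all features, 16.8% were higher and 13.5% lower. The gene that rose was Crispld2, a secreted CAP protein with an LCCL domain, by 1.77 ± 0.35 (adjusted p = 0.00944), a call lost with slide row as a block (1.08) and with spike-in scaling (1.17). Its relative Crispld1 was at least 3.93-fold lower (adjusted p = 0.000553) and the peptidase inhibitor gene Pi15 at least 1.14-fold lower (adjusted p = 0.000471), both without signal above background in any neoplasia. The adjusted p beside a bound is that of the fitted difference and not of the bound. With normexp, Crispld1 differed by -0.62, which is 1.53-fold and under that bound, and Pi15 by -0.02, which was not called.

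Secretory genes of the epididymis, the seat of Crisp1 in the male, were called about as often as all features. Of 29 listed, 12 were tested, of which 2 rose, 2 fell and 8 were not called, with a median of 0.13. Over all features, 16.8% were higher and 13.5% lower. The 11 that were above background on no array included Adam7, Gpx5, Lcn8, Lcn9 and Ros1. Lcn6, Lcn12, Rnase10 and Cst12 of the same list were above background on every array and not called. The lipocalin gene Lcn2, which is also made by neutrophils and uterine epithelium, rose by 8.99 ± 1.13 (adjusted p = 0.0013). With slide row as a block it was 7.86 higher and no longer called (adjusted p = 0.0521). Its wildtype levels were 1.66, 3.03 and -2.51, so wildtype 3 stood apart, and the difference was 7.37 without wildtype 3 and 10.14 without wildtype 2. Teddm1a was at least 2.38-fold higher (adjusted p = 0.0185; 1.74-fold with normexp), and the protease inhibitor genes Wfdc10 and Cst8 differed by -4.13 ± 0.64 (adjusted p = 0.00344) and -3.62 ± 0.88 (adjusted p = 0.0198). The call of Teddm1a was lost without any 1 wildtype array (adjusted p = 0.061 to 0.0653) and with slide row as a block (0.65, adjusted p = 0.431), and that of Cst8 without wildtype 2 or wildtype 3 (0.0689 and 0.0708). The summed level of the list on the linear scale was 37.9 to 82.1 in wildtype and 389 to 1500 in neoplasia, and without Lcn2 it was 34.7 to 82.0 and 4.69 to 25.3.

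The other secretory genes of the seminal vesicle, prostate and coagulating gland were also called at a rate near that of all features. Of 21 listed, 10 were tested, of which 2 rose and 8 were not called, with a median of 0.53. The shares over all features were 16.8% higher and 13.5% lower. Above background on no array were Gucy2g, Pbsn, Sbp, Spinkl, Sval1 and Svs3b, Pbsn (probasin) being the classic androgen-driven gene of the prostate. Slpi, Aoc1, Azgp1 and Tgm4 were above background on every array and not called. Ceacam10, which encodes a cell adhesion protein of seminal vesicle fluid, was at least 29.4-fold higher (adjusted p = 0.000475), and 6.43-fold with normexp. Klk1b24, a kallikrein gene, rose by 3.58 ± 0.94 (adjusted p = 0.0248), a call lost without wildtype 1, wildtype 3 or neoplasia 4 (adjusted p = 0.0541 to 0.0873), and its difference was 2.97 without neoplasia 3. The summed level was 1.1 to 14.6 in wildtype and 5.79 to 53.5 in neoplasia, groups that overlap.

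Markers of the other sites of these genes were read the same way. Of 15 haploid male germ cell markers, the setting of Crisp2, 7 were tested and limma called 0, with 1 higher and 1 lower at an unadjusted p under 0.05. Other settings called up to 2, namely 2 higher with normexp and with quantile normalization, 2 lower with no filter on dim probes, 1 lower with spike-in scaling and in the deposited values, and 1 higher without neoplasia 5 and with the replicate number as a block. Their summed level was 1.55 to 1.89 in wildtype and 1.21 to 2.02 in neoplasia. Acrv1, Odf1, Tssk3, Zpbp and Izumo1 were above background on no array, whereas Prm2, Acr and Odf2 were above it on every array. Tnp1 was above background on 2 wildtype and 4 neoplasia arrays, and Prm1 on 1 and 3. Of 12 B cell precursor markers, 7 were tested and 2 fell, with a median of -0.24, and the recombinase genes Rag1 and Rag2 were above background on no array. Vpreb1, Cd79b and Ebf1 were above background on every array and not called, with differences of -0.81, 0.62 and -0.24. The surrogate light chain gene Vpreb3 fell by 4.87 ± 0.83 (adjusted p = 0.00498), and Cd79a was at least 1.36-fold lower (adjusted p = 0.029). The call of Cd79a was lost without any 1 wildtype array or neoplasia 4 (adjusted p = 0.0597 to 0.111), and its sign turned with normexp (0.09). That of Vpreb3 was lost with slide row as a block (-3.80), and its difference was -6.01 without wildtype 3 and -4.24 without wildtype 1.

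Salivary and lacrimal gland genes, which belong to a tissue of Crisp3, had 6 tested of 14 listed, of which 3 rose and 1 fell, with a median of 0.42. The amylase gene Amy1, which the salivary gland and liver share, rose by 6.49 ± 0.75 (adjusted p = 0.000877). The kallikrein gene Klk1b22 rose by 2.61 ± 0.63 (adjusted p = 0.0193) and Prpmp5 by 0.79 ± 0.20 (adjusted p = 0.0238). Bpifa2, a salivary secretory protein, was at least 3.74-fold lower (adjusted p = 7.72e-05) and with normexp 1.58-fold lower, and the submandibular mucin-like gene Smgc was above background on no array. Klk1b22 was not called without wildtype 1 or wildtype 3 (adjusted p = 0.0796 and 0.0705), nor Prpmp5 without any 1 wildtype array (0.0512 to 0.105), with spike-in scaling (0.19) or in the deposited values (0.27). The summed level was 2.03 to 7.90 in wildtype and 29.8 to 333 in neoplasia, and without Amy1 it was 0.764 to 6.32 and 1.07 to 3.45.

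**Figure D4:**
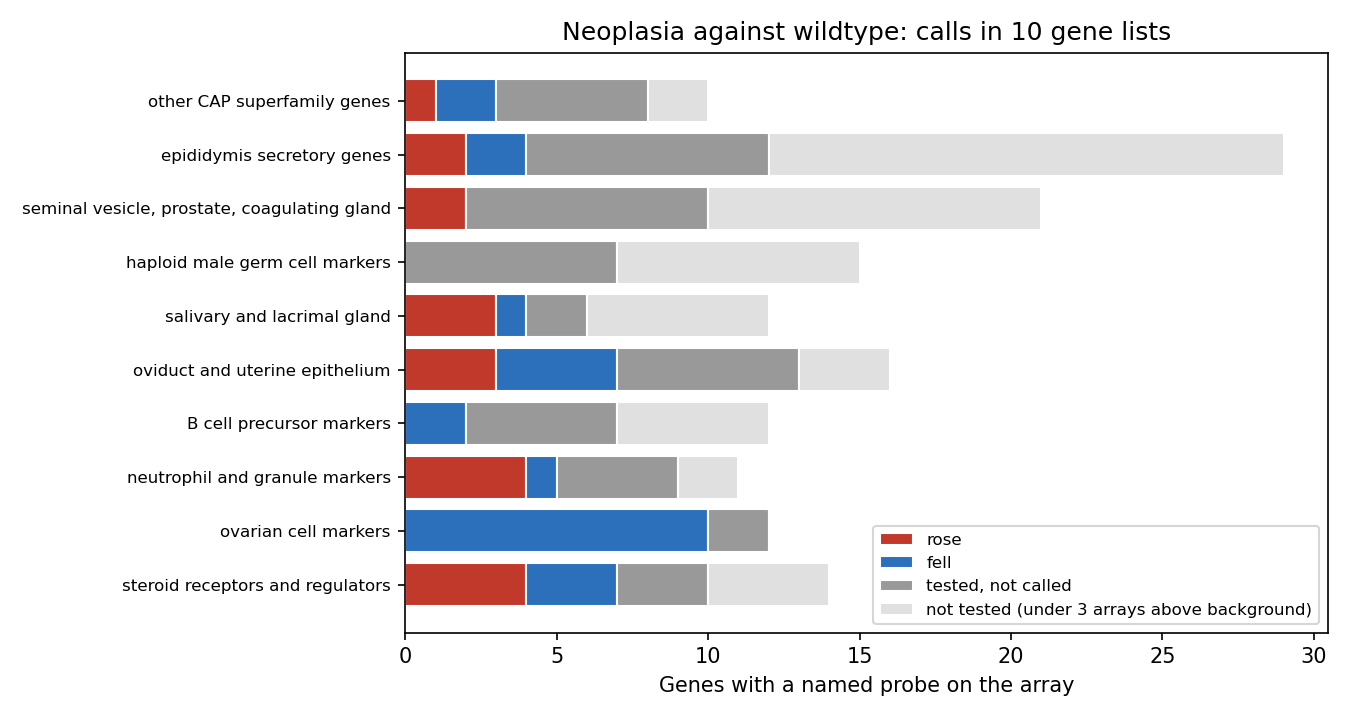
Number of genes with a named probe in each of 10 lists that were called higher (red), called lower (blue), tested but not called (dark grey) or not tested (light grey). Ovarian cell markers had 10 of 12 called lower, and most genes of the epididymal and accessory gland lists were not tested or not called. Over all tested features, 16.8% were called higher and 13.5% lower.

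Of 12 ovarian cell markers, all were tested and 10 fell, with a median of -5.32. The inhibin gene Inha of granulosa cells fell by 9.36 ± 1.27 (adjusted p = 0.00185), with a difference of -8.47 without neoplasia 1 and -10.18 without neoplasia 5, and the oocyte coat gene Zp3 fell by 5.96 ± 0.31 (adjusted p = 1.6e-05). The gonadotropin receptor genes Lhcgr and Fshr were at least 120-fold and at least 33.3-fold lower (adjusted p = 4.57e-06 and 4.45e-06), and 23.0-fold and 8.70-fold lower with normexp. Their summed level was 293 to 478 in wildtype and 73.4 to 171 in neoplasia. Foxl2 (0.43 ± 0.19, adjusted p = 0.118) and Cyp17a1 (0.30 ± 0.33, adjusted p = 0.498) were not called. The level of Foxl2 was 4.88 to 5.13 in wildtype and 5.20 to 5.65 in neoplasia. Most of the 12 markers, but not these, were thus lower in the samples in which Crisp1, Crisp3, Svs1, Svs5 and Svs6 were bright. The part of the markers in the members' differences was not tested.

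Of 16 oviduct and uterine epithelium markers, 13 were tested, of which 3 rose and 4 fell, with a median of -0.59, and limma called 0 of them with slide row as a block. Besides Lcn2, the keratin gene Krt8 rose by 4.0 ± 0.78 (adjusted p = 0.00833), which was 3.15 and not called with slide row as a block. The oviduct glycoprotein gene Ovgp1 fell by 5.0 ± 1.51 (adjusted p = 0.0385). Its wildtype levels were 5.92, 7.99 and 0.37, so wildtype 3 was low and overlapped the neoplasias. Leaving out any array but wildtype 3 ended that call (adjusted p = 0.0505 to 0.138), and the difference was -7.19 without wildtype 3 and -3.38 without wildtype 2. The lactoferrin gene Ltf fell by 4.87 ± 1.33 (adjusted p = 0.0281), a call lost without wildtype 1, wildtype 2 or neoplasia 1 (0.0501 to 0.108), and its difference was -6.29 without wildtype 3. The summed level of the list was 15.9 to 355 in wildtype and 562 to 2260 in neoplasia, and without Lcn2 it was 15.7 to 347 and 177 to 769, ranges that overlap. Of 12 neutrophil and granule markers, 9 were tested, of which 4 rose and 1 fell, with a median of 1.23 and summed levels of 1.68 to 23.9 and 3.65 to 30.7. The calprotectin genes S100a9 and S100a8 rose by 3.91 ± 0.87 (adjusted p = 0.0143) and 3.72 ± 0.82 (adjusted p = 0.0139), and Retnlg was at least 8.54-fold higher (adjusted p = 0.0186), and 2.78-fold with normexp. Without wildtype 3 these 3 calls were lost (adjusted p = 0.0545 to 0.0695), that of S100a9 also without wildtype 2 (0.0515) and that of Retnlg without wildtype 1 (0.0523). The part of these cells in the members' levels was not tested.

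Steroid receptors and transcription factors named for accessory gland genes were listed because the SVS genes are hormone targets in the male. Of 14 listed, 10 were tested, of which 4 rose and 3 fell, with a median of 0.08. The progesterone receptor gene Pgr, the gene driven by the allele, rose by 9.13 ± 0.74 (adjusted p = 0.000136) by its brightest probe, which was above background in 2 of 3 wildtype ovaries. The difference was 8.13 without wildtype 3, 6.38 in the deposited values, 6.29 with normexp and 2.70 as the mean over the probes of Pgr, and it was called in each. By the brightest probe, its level was 3.99, 3.25, 4.88, 4.28 and 3.12 in neoplasia 1 to 5, so neoplasia 3 and 4 were highest for Pgr as for the members, while neoplasia 5 and not neoplasia 2 was lowest. The estrogen receptor gene Esr1 fell by 3.38 ± 0.59 (adjusted p = 0.0053), while Gata3 rose by 3.17 ± 0.58 (adjusted p = 0.00673) and Etv5 by 2.44 ± 0.25 (adjusted p = 0.000503). With slide row as a block, Esr1 (-1.79) and Gata3 (2.20) were no longer called. Foxa1, a regulator of prostate epithelium, was above background on no array. The calls of Inha (-6.08), Wfdc10 (-4.55), Klk1b24 (2.79), Klk1b22 (2.58), Prpmp5 (0.63), Ovgp1 (-5.04), Ltf (-5.07) and S100a9 (5.39) were also lost in that fit.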

How the data were processed

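Spot intensity in the deposited scanner files is linear. Agilent Feature Extraction 11.0.1.1 produced it, with an mm9 grid, per the file headers. Values in the deposited table are log2, and 37932 of its 37932 rows equalled log2 of the mean processed intensity of a feature name within 0.001, so it is neither centred nor scaled between arrays. Partek is named, with no role, per the submitters' processing notes.

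Here, control spots and spots with outlier flags were dropped, spots of a probe were averaged, and the log2 processed intensity was set against the 75th percentile of its array. Accessions were matched to RefSeq (GRCm38.p6), which named 26582 of 55681 probes. A probe needed 3 arrays well above background to be tested, the brightest on average standing for a gene, with limma 3.58.1 in R 4.3.3 (neoplasia minus wildtype, all 8 arrays, no covariates, two-sided, Benjamini-Hochberg adjustment over all features). The test was tried on simulated data. A fold of a gene above background on no array of a group is a bound against the lowest signals well above background there. An adjusted p given with such a bound belongs to the fitted difference.

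The members, the 10 gene lists and the naming rule (all members; up to 4 called genes of a list by size; 3 genes of like pattern per member) were chosen with earlier results of these data known. TATAAA, its window, the neighbouring genes and the unscaled order of the neoplasias were added after the data were seen. Alternatives were normexp (offset 50), quantile and spike-in scaling, the deposited log2 values, other probe filters, the mean over probes, eBayes with trend and robust, replicate and slide row blocks, a threshold of 0.01, and leaving out each array.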

Additional observations from a re-analysis of the deposited data

Results flagged for a closer look

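Levels of 29 probes were screened over the 5 neoplasias for a single array far from the others, and 2 passed the cut-off of 0.71 of the range. Chance alone gives about 1 in 20 per probe, so 2 of 29 is near the number that chance gives. Crisp3 in neoplasia 2 was at 7.01, below the 8.53 to 9.14 of the other 4 neoplasias, and the gap was 0.714 of the whole range. The Svs4 level in neoplasia 3 was -2.52, above the -7.06 to -6.44 of the others, with a gap of 0.864 of the range, and it was the 1 array on which Svs4 was well above background.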

How the results depend on the processing

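The differences of Crisp1, Crisp3, Svs1, Svs5 and Svs6 kept their sign under every alternative that gave a value, from 10.05 to 14.82, 10.97 to 14.16, 4.87 to 9.87, 6.61 to 7.77 and 7.13 to 8.78. The lowest values came from normexp, except for Svs5, where spike-in scaling gave the lowest. The count of called members was 5, and 2 (Svs5 and Svs6) where all 8 arrays had to be above background, since that filter removes the other 3. It was 5 whichever array was left out. No count of called members is read as a result, since the members were chosen by this contrast. The 7634 changed features became 4924 with spike-in scaling, 4681 with the replicate block, 1544 with slide row as a block and 2556 at a threshold of 0.01, and 2827 to 9956 with 1 array left out (2827, 3203 and 4026 without wildtype 1, 2 and 3). The 42 called list genes became 25 with the filter on all 8 arrays, 19 with slide row as a block, 24 at 0.01 and 28 to 44 with 1 array left out. Replicate numbers do not pair the samples (correlations of deviations -0.0541 to -0.0016), and the replicate block gave 5 called members. The sign turned for Cd79a with normexp (0.0879). The median difference of all features was 0.13, -0.47 with spike-in scaling and -0.34 in the deposited values, and the share of calls that were higher was 55.4%, against 15.2% and 19.9% there, 66.2% with normexp, 67.6% with the filter on all 8 arrays and 42.9% with the replicate block. The causes of these changes were not tested. Signals at background limit Crisp1, Crisp3 and Svs1 in wildtype ovary to bounds or uncertain levels, and Crisp2, Svs2 and Svs3a in all samples.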
